A study of Mus musculus with 9 samples.

Results

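The 9 Krüppel-like factor genes Klf2, Klf3, Klf4, Klf5, Klf6, Klf7, Klf9, Klf10 and Klf13, were followed across poly(A) RNA libraries of mouse cells expressing a tagged histone H4. They were listed by name with earlier results of these data known, and the 8 other Klf genes of the table are given further down. All 9 members were found by Entrez ID among the 24100 genes of the count table, and all 9 had enough counts to be tested, among 14761 tested genes. The cells, neural by label, were derived from embryonic stem cells with a stable PiggyBac transgene for histone H4 fused to a 3HA tag, a peptide recognised by an antibody. The H4K91R group expressed H4 with lysine replaced by arginine, which keeps the positive charge. In the H4K91Q group lysine was replaced by glutamine, an uncharged residue that resembles acetylated lysine in charge. The H4WT group expressed wild-type tagged H4, so all 3 groups carried a transgene. Each group had 3 libraries. The sample descriptions of all groups begin with the same prefix, a number followed by 'Ddif', which the labels do not explain. No stage of differentiation was read from it. The labels name neither the promoter of the transgene, nor a change to the cells' own H4 genes, nor whether a line was 1 clone. Nor do they say whether replicates were separate differentiations, so the p-values measure only the spread between these libraries.

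Krüppel-like factors are transcription factors with a set of zinc fingers at the C terminus that binds GC-rich DNA and CACCC boxes. Because the fingers are so alike, family members compete for the same sites, and what they do there depends on the rest of the protein. Klf2, Klf4 and Klf5 sustain the naive state of mouse embryonic stem cells, while Klf3 recruits the corepressor CtBP, and Klf9, Klf10 and Klf13 recruit Sin3A. In the nervous system Klf6 and Klf7 favour axon growth, and Klf4 and Klf9 limit it.

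Upstream sequence is shown for the 5 members whose level passed the test in each mutant comparison, since KLF sites in KLF promoters are one way in which the family regulates itself. The stretches are the 250 bases before the RefSeq start on build GRCm38.p6, written on the strand of the gene, 5′ to 3′. Capitals mark a CACCC box (CACCC or GGGTG) or a GC box (GGGCGG or CCGCCC), and matches may overlap.
Klf2 (chr8:72318812-72319061, plus strand): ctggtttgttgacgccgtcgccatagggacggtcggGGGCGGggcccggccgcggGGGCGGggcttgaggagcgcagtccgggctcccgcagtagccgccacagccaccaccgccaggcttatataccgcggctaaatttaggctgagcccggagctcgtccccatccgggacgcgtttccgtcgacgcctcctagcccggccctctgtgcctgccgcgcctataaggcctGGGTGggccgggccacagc
Klf3 (chr5:64803271-64803520, plus strand): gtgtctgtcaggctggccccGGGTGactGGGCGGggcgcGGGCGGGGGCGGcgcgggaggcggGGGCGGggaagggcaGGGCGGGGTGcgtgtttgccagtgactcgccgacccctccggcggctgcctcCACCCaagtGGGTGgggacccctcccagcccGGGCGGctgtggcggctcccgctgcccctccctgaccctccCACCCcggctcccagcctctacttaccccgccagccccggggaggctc
Klf4 (chr4:55532476-55532725, minus strand): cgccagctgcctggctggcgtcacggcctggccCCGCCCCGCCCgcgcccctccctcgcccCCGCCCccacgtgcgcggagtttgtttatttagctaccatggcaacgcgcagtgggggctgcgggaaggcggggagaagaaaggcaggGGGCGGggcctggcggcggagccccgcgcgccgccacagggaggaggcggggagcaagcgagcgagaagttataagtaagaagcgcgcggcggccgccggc
Klf6 (chr13:5861239-5861488, plus strand): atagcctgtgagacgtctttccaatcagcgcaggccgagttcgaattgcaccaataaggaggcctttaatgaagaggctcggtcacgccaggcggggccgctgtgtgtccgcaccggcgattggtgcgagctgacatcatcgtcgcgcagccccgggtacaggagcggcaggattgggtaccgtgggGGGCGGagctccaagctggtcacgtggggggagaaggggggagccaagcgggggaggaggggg
Klf9 (chr19:23140976-23141225, plus strand): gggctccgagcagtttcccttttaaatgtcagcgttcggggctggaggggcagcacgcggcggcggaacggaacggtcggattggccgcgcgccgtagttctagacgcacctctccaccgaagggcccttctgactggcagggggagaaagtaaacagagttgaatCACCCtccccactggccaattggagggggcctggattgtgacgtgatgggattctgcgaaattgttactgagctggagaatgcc

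The Klf3 window held 5 CACCC boxes and 6 GC boxes, and in 1 place a box of each kind shared bases. Klf4 had 0 CACCC boxes and 4 GC boxes, 1 pair of them overlapping, and Klf2 had 1 and 2. Klf6 had 0 CACCC boxes and 1 GC box, whereas Klf9 had 1 CACCC box and 0 GC boxes. Of 32851 windows of this length in the RefSeq promoter table, 52% held a CACCC box and 32.7% a GC box, so single matches are common. GC content was 71.2% for Klf2, 78.4% for Klf3, 74% for Klf4, 64.8% for Klf6 and 59.6% for Klf9, against a median of 52.4% over all windows. The exact 8-base strings TATTTATA (reverse TATAAATA), 1 form of the MEF2 core, and TGACGTCA, the cAMP response element, lie in 1.56% and 1.55% of windows. Neither string occurred in these 5 stretches. Other forms of these sites were not searched for, so the stretches may still hold a MEF2 site or a cAMP response element. The windows of Klf7 and Klf13 were also in the table and held 3 and 1 CACCC boxes and 1 and 3 GC boxes. Their GC content was 59.2% and 71.6%, within the range of the 5 shown for Klf13 and just below it for Klf7.

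Total counts per library were 9743050 to 16704020 in H4K91R, 16364686 to 22661768 in H4K91Q and 8970553 to 28887501 in H4WT. Neuronal markers were present, yet so were those of other cell types. The summed level of 8 neuronal markers, given like all levels here in CPM (counts scaled to a common library total, with TMM factors), was 789 to 977 CPM in H4K91R, 631 to 671 CPM in H4K91Q and 186 to 246 CPM in H4WT. That of 8 smooth muscle markers was 479 to 762 CPM in H4K91R, 447 to 502 CPM in H4K91Q and 3980 to 4772 CPM in H4WT, and that of 8 epithelial markers was 700.5 to 794 CPM in H4K91R, 781 to 904 CPM in H4K91Q and 1229 to 1364 CPM in H4WT. The 7 fibroblast markers had the highest sum in every group, 6177 to 7095 CPM in H4K91R, 6479 to 7161 CPM in H4K91Q and 5656 to 6573 CPM in H4WT. For 7 endoderm markers the sums were 554 to 587, 482 to 517 and 606 to 689 CPM in the same groups. For 8 neural progenitor markers they were 597 to 684, 429 to 496 and 223 to 292 CPM. In bulk RNA, fewer cells of a type and less RNA per cell cannot be told apart, and this holds for every result below.

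Per length, Klf6 and Klf4 were the most abundant of the 9 factors in every group, and Klf7 the least. Mean levels, in CPM per kilobase of exon, ran in the order Klf6, Klf4, Klf2 and Klf13 in all 3 groups. In H4K91R these stood at 61.3, 46.8, 31.05 and 10.7 CPM per kilobase. In H4K91Q the values were 66.1, 46.7, 38.1 and 10.5, and in H4WT 86.6, 57.2, 24.99 and 10.9 CPM per kilobase. No library of a factor in this order overlapped a library of the next within a group. Klf10, Klf5, Klf9 and Klf3 followed in both mutants, between 2.20 and 6.37 CPM per kilobase, and Klf9, Klf5, Klf10 and Klf3 in H4WT, between 3.29 and 7.11. The ranges of Klf5 and Klf9 overlapped in H4K91Q, as did those of Klf5 and Klf10 in H4WT. This middle order also changed when the longest transcript was used as the length, while the first 4 places and the last kept theirs. Klf7 lay at 0.872 CPM per kilobase in H4K91R, 0.897 in H4K91Q and 0.890 in H4WT.

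**Figure D1:**
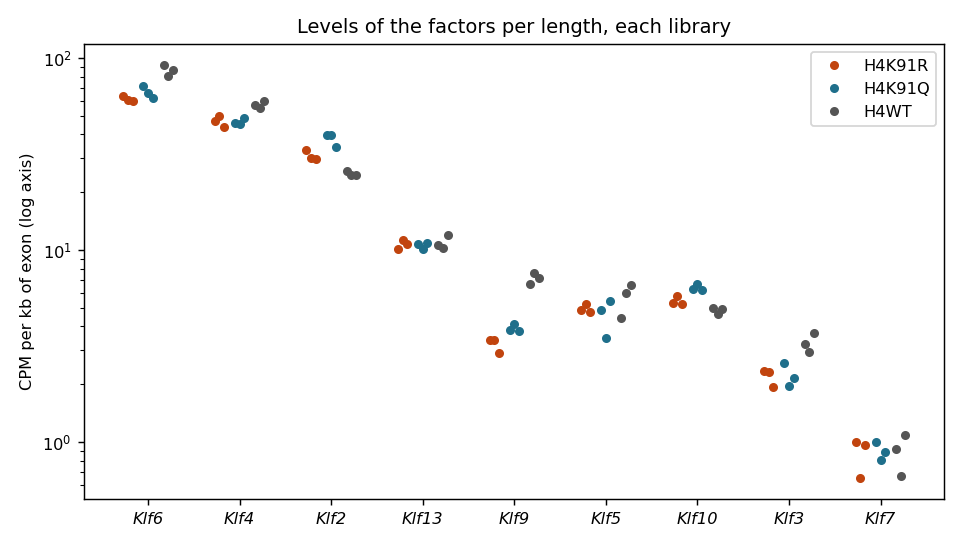
Level of each Krüppel-like factor in CPM per kilobase of exon (log axis), 1 point per library, with H4K91R, H4K91Q and H4WT side by side and factors ordered by their H4WT mean. Klf6 lies highest at 61.3 to 86.6 CPM per kilobase (group means) and Klf7 lowest near 0.9, and Klf2 and Klf9 show opposite steps between the mutants and H4WT.

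The comparisons of H4K91R and of H4K91Q with H4WT asked whether the factors change with either mutant histone. Klf9 was lower in both mutants by the widest margin of the 9, Klf3, Klf4 and Klf6 were lower by less, and Klf2 was higher. Klf10 was higher in H4K91Q. Of the 9 members, 1 rose and 4 fell in H4K91R, against 46% of all tested genes called in that comparison (20.9% rose and 25.1% fell). In H4K91Q 2 rose and 4 fell, against 46.3% of all genes (22.5% rose and 23.8% fell). The joint test over the 3 groups called 6 of the 9 members, against 50.6% of all genes. The share of members called was thus near that of all genes. Among called genes the median size of the log2 change was 0.60 for H4K91R and 0.58 for H4K91Q, and for the called members it was 0.50 and 0.47. Tests were edgeR quasi-likelihood tests with Benjamini-Hochberg adjustment over all genes, and a gene passed at an adjusted p below 0.05. Both comparisons share the same 3 H4WT libraries. Errors of log2 changes are SEs and those of CPM values are SDs (n = 3).

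**Figure D2:**
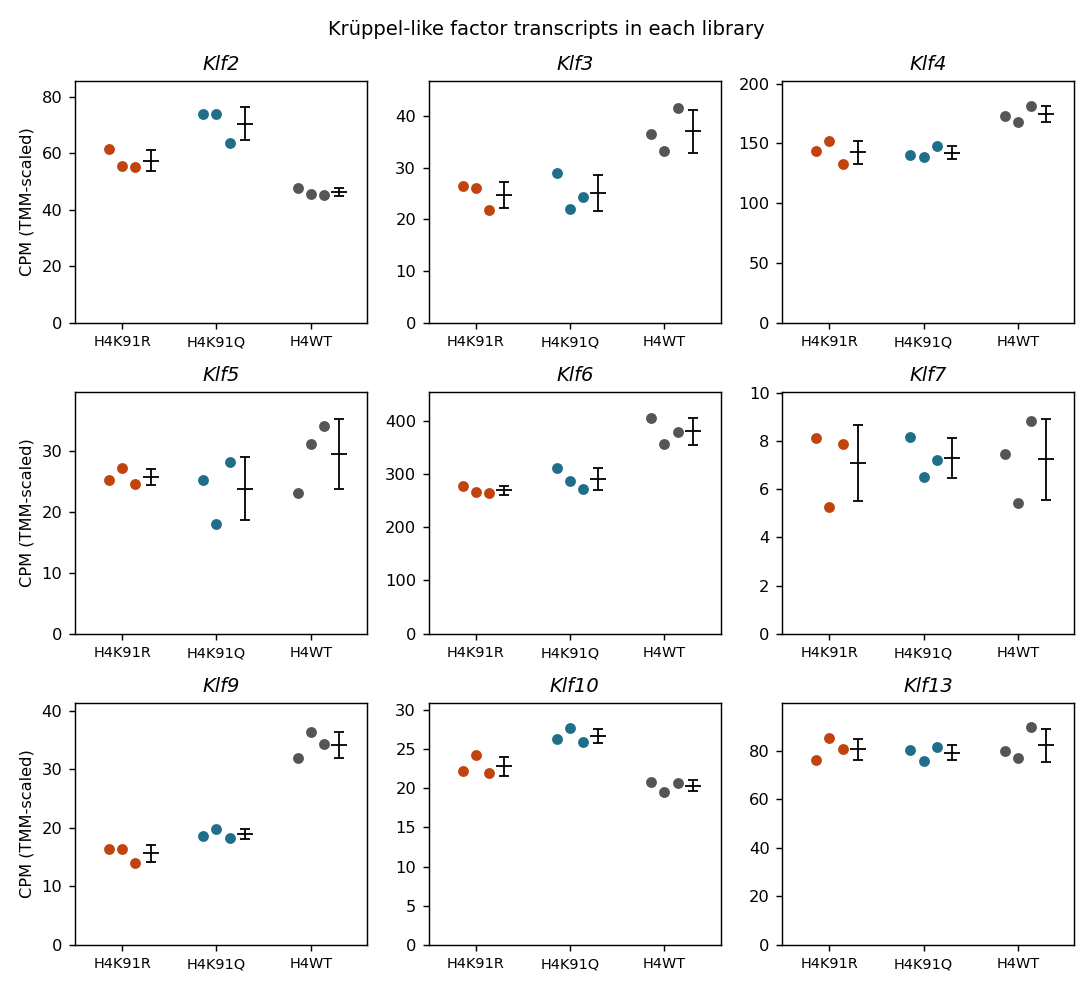
Level of the 9 factors in CPM (TMM scale), 1 point per library, with mean and SD beside each group (n = 3), each panel with its own axis from 0. Klf9 lies at 13.98 to 19.9 CPM in the 6 mutant libraries and at 32.0 to 36.4 CPM in the H4WT libraries, and Klf2 at 54.9 to 73.7 CPM and 45.3 to 47.7 CPM.

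Among the factors of naive stem cells, Klf2 is the one that rose. MEK and ERK signalling destabilises its protein in stem cells, and outside them it is known for quiescence of endothelium and T cells. Its level was 61.6, 55.5 and 54.9 CPM in the H4K91R libraries, 73.7, 73.7 and 63.6 CPM in those of H4K91Q, and 47.7, 45.4 and 45.3 CPM in those of H4WT. Every mutant library lay above every H4WT library. The log2 change was 0.32 ± 0.082 in H4K91R (SE, adjusted p = 0.00663, edgeR) and 0.61 ± 0.081 in H4K91Q (adjusted p = 5.08e-05, edgeR), that is 1.25-fold and 1.53-fold.

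Klf4, one of the factors used to reprogram somatic cells and a target of LIF and STAT3, went the other way. It stood at 144, 152 and 133 CPM in H4K91R, 140.2, 139 and 148 CPM in H4K91Q, and 173, 168 and 181 CPM in H4WT. No mutant library reached the lowest H4WT library. Klf4 fell by 0.29 ± 0.069 on the log2 scale in H4K91R (adjusted p = 0.00415, edgeR) and by 0.29 ± 0.068 in H4K91Q (adjusted p = 0.00372, edgeR). With library size in place of TMM scaling both calls ended: the log2 changes were -0.10 (adjusted p = 0.26) and -0.12 (adjusted p = 0.167), while the median over all genes was 0.15 and 0.18. Relative to that median Klf4 changed by -0.25 and -0.30.

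The ratio of Klf2 to Klf4 counts within a library does not depend on the scaling. It was 0.429, 0.365 and 0.414 in H4K91R, 0.526, 0.531 and 0.429 in H4K91Q, and 0.276, 0.270 and 0.250 in H4WT. Each mutant library thus held more Klf2 counts per Klf4 count than any H4WT library. Summed over Klf2, Klf4 and Klf5, the level was 226 ± 11.9 CPM in H4K91R, 237 ± 5.23 CPM in H4K91Q and 249.9 ± 9.55 CPM in H4WT (SD, n = 3 each).

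Klf5, the third factor of the naive trio and a regulator of gut epithelium and smooth muscle remodelling, did not pass. Its libraries held 25.3, 27.2 and 24.6 CPM in H4K91R, 25.3, 18.1 and 28.1 CPM in H4K91Q, and 23.1, 31.2 and 34.2 CPM in H4WT. H4WT replicate 1 lay below all 3 H4K91R libraries, and the ranges overlapped in both comparisons. The log2 change was -0.20 in H4K91R (95% interval -0.55 to 0.14) and -0.32 in H4K91Q (-0.66 to 0.02). In H4K91Q the value turned on single libraries. Without H4WT replicate 1 or without H4K91Q replicate 3 the log2 change was -0.45, with an adjusted p of 0.032 and 0.0465 (edgeR). Without H4K91Q replicate 2 it was -0.15 and without H4WT replicate 3 it was -0.22, with an adjusted p of 0.399 and 0.326 (edgeR).

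Klf9, a Sin3A-binding repressor that thyroid hormone and glucocorticoids induce in neurons, had the largest change of the 9. It stood at 16.5, 16.4 and 13.98 CPM in H4K91R, 18.5, 19.9 and 18.3 CPM in H4K91Q, and 32.0, 36.4 and 34.3 CPM in H4WT. All 6 mutant libraries lay below the 3 of H4WT, with a wide gap. Klf9 fell by 1.13 ± 0.097 on the log2 scale in H4K91R (adjusted p = 1.24e-06, edgeR), to 0.457 of the H4WT level. In H4K91Q it fell by 0.86 ± 0.093 (adjusted p = 9.72e-06, edgeR), to 0.550 of the H4WT level. Thra, the main thyroid hormone receptor of the brain, rose by 1.12 ± 0.078 and 0.98 ± 0.077 on the log2 scale in H4K91R and H4K91Q, and Tsc22d3, a glucocorticoid-induced gene, by 0.34 ± 0.091 and 0.58 ± 0.089. Sgk1, another gene induced by glucocorticoids, fell by 0.81 ± 0.11 and by 0.53 ± 0.10. Of 11 tested genes of thyroid and glucocorticoid response, 4 rose and 1 fell in H4K91R, and 6 rose and 1 fell in H4K91Q. Over all tested genes 20.9% rose and 25.1% fell in H4K91R, and 22.5% rose and 23.8% fell in H4K91Q.

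Klf6, an early response factor also reported as a tumour suppressor, was the most abundant member and fell in both mutants. Its level was 278, 266 and 264 CPM in H4K91R, 312, 287 and 272 CPM in H4K91Q, and 406, 356 and 379.5 CPM in H4WT. The highest mutant library stayed below the lowest H4WT library. The decrease was 0.50 ± 0.073 in H4K91R (log2 change -0.50, adjusted p = 0.00011, edgeR) and 0.39 ± 0.073 in H4K91Q (log2 change -0.39, adjusted p = 0.000777, edgeR). Cdkn1a, a cell cycle inhibitor reported as a target of Klf6, Klf4 and p53, stood at 303 ± 52.1 CPM in H4K91R, 257 ± 5.99 CPM in H4K91Q and 633 ± 18.5 CPM in H4WT, log2 changes of -1.06 and -1.30.

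Klf3, which represses through CtBP and is known from blood and fat cells, held 26.4, 26.0 and 21.9 CPM in H4K91R, 28.99, 22.1 and 24.3 CPM in H4K91Q, and 36.4, 33.2 and 41.5 CPM in H4WT. Again the groups did not overlap, with H4WT above. Klf3 fell by 0.56 ± 0.12 on the log2 scale in H4K91R (adjusted p = 0.00218, edgeR), and in H4K91Q its log2 change was -0.54 ± 0.12 (adjusted p = 0.00235, edgeR). An antisense gene, Gm20033, overlaps exons of Klf3 in GENCODE M21, and with no strand setting given their reads cannot be told apart.

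Klf10, first found as a gene induced early by TGF-beta, stood at 22.3, 24.2 and 21.96 CPM in H4K91R, 26.3, 27.7 and 26.0 CPM in H4K91Q, and 20.8, 19.5 and 20.7 CPM in H4WT. The 3 groups did not overlap, with H4K91Q highest and H4WT lowest. In H4K91Q Klf10 rose by 0.40 ± 0.084 (adjusted p = 0.00192, edgeR). In H4K91R the log2 change was 0.17 with a 95% interval of -0.02 to 0.36 (adjusted p = 0.122, edgeR), and with library size scaling it was 0.36 (adjusted p = 0.00496, edgeR), or 0.20 relative to the median of all genes under that scaling. Counting members whose libraries did not overlap H4WT, 2 lay above and 4 below in each mutant. Of all tested genes, 55.1% did not overlap in each comparison, with 25% above and 30.1% below in H4K91R and 27.4% above and 27.7% below in H4K91Q. Of 15 genes of TGF-beta signalling, 10 fell and 1 rose in H4K91R, and 9 fell and 1 rose in H4K91Q. By the same calls, 25.1% of all tested genes fell and 20.9% rose in H4K91R, and 23.8% fell and 22.5% rose in H4K91Q. The part of TGF-beta signalling in the Klf10 level was not tested. Skil, a feedback inhibitor of SMADs, stood at 61.5 ± 9.48 CPM in H4K91R, 65.9 ± 3.72 CPM in H4K91Q and 156 ± 15.5 CPM in H4WT.

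Klf13 and Klf7 showed no difference at this depth. Klf13, a Sin3A-binding factor of T cells and the heart, held 76.4, 85.2 and 80.6 CPM in H4K91R, 80.5, 75.8 and 81.7 CPM in H4K91Q, and 80.0, 77.1 and 89.9 CPM in H4WT. Its 95% intervals were narrow, -0.19 to 0.14 in H4K91R and -0.21 to 0.12 in H4K91Q on the log2 scale. Klf7, which sensory and cortical neurons use for axon growth, was scarce at 8.11, 5.27 and 7.88 CPM in H4K91R, 8.15, 6.53 and 7.21 CPM in H4K91Q, and 7.45, 5.44 and 8.82 CPM in H4WT. Its intervals were wide, -0.41 to 0.49 and -0.35 to 0.51, and 2 antisense genes overlap its exons. Gap43, a growth cone protein, stood at 94.1 ± 16.1 CPM in H4K91R, 74.8 ± 7.13 CPM in H4K91Q and 29.7 ± 5.04 CPM in H4WT. L1cam, an axonal adhesion molecule reported as a Klf7 target, stood at 44.5 ± 3.47 CPM in H4K91R, 26.6 ± 3.51 CPM in H4K91Q and 12.5 ± 2.75 CPM in H4WT. Both belong to a list of 8 genes of axon growth and reported Klf6 and Klf7 targets, so it is not a list of Klf7 targets alone. It shares Stmn2 and Tubb3 with the neuronal markers. Of its genes, 6 of 7 tested rose and 1, Cdkn1a, fell in each mutant. Among all tested genes 20.9% rose and 25.1% fell in H4K91R, and 22.5% rose and 23.8% fell in H4K91Q.

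**Figure D3:**
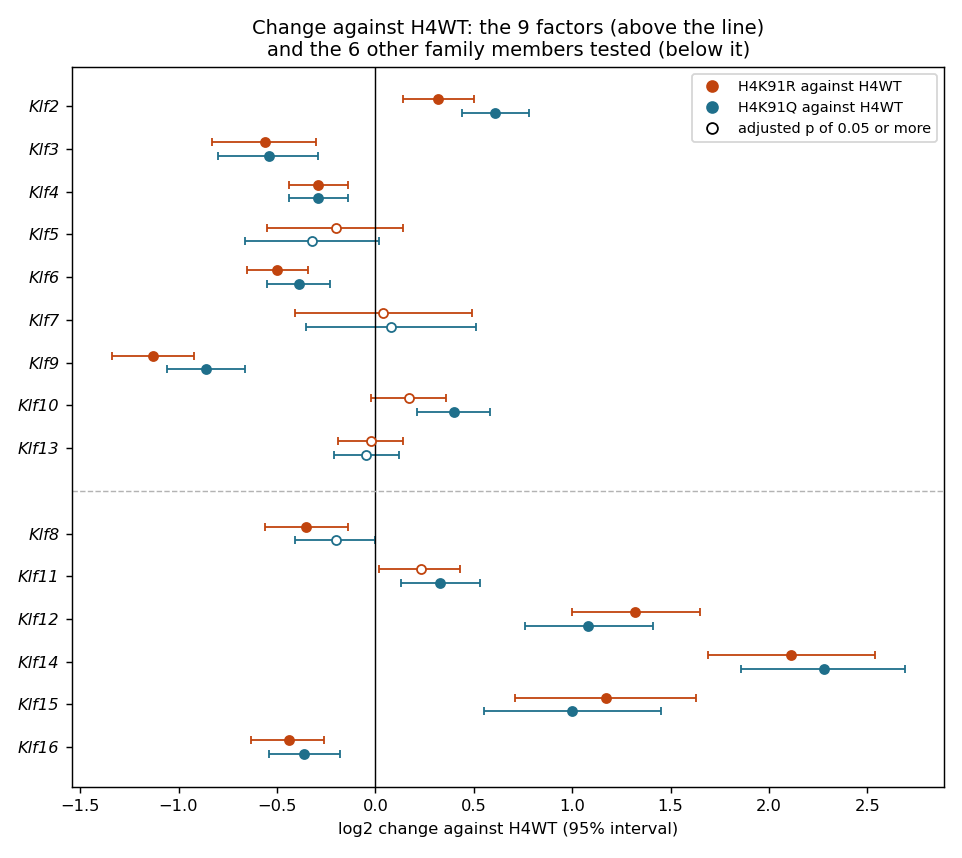
Log2 change against H4WT with its 95% interval for the 9 factors (above the dashed line) and the 6 other Klf genes tested (below it), H4K91R above H4K91Q for each gene, open circles for an adjusted p of 0.05 or more. Klf9 has the largest decrease, -1.13 and -0.86, and Klf14, which is not one of the 9, the largest increase, 2.11 and 2.28.

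The family has 8 other Klf genes in the table. Of the 6 with enough counts, 3 rose and 2 fell in H4K91R, and 4 rose and 1 fell in H4K91Q. Among all tested genes 46% were called in H4K91R and 46.3% in H4K91Q. The median log2 change of these 6 genes was 0.70 in H4K91R and 0.67 in H4K91Q. It was -0.20 and -0.29 for the 9 members and -0.03 and 0.01 for all tested genes. Klf14, an imprinted gene without introns that arose as a copy of Klf16, stood at 15.0, 20.8 and 24.7 CPM in H4K91R, 25.1, 21.5 and 20.2 CPM in H4K91Q, and 5.05, 4.78 and 3.80 CPM in H4WT. That was 4.33-fold higher in H4K91R (log2 change 2.11 ± 0.20) and 4.85-fold higher in H4K91Q (2.28 ± 0.19). Klf16 itself fell by 0.44 ± 0.085 and by 0.36 ± 0.083 on the log2 scale. Klf12, a CtBP-binding repressor like Klf3, rose by 1.32 ± 0.15 and 1.08 ± 0.15. Klf15, a glucocorticoid-induced factor of metabolism, was 2.25-fold higher in H4K91R (log2 change 1.17 ± 0.21) and 2-fold higher in H4K91Q (adjusted p = 0.00139, edgeR). Klf8 fell by 0.35 ± 0.097 in H4K91R and had a log2 change of -0.20 in H4K91Q (adjusted p = 0.0968, edgeR). Klf11 rose by 0.33 ± 0.093 in H4K91Q and had a log2 change of 0.23 in H4K91R (adjusted p = 0.0654, edgeR). Klf1, the erythroid founder of the family, and Klf17 had too few counts to be tested.

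Several of the 9 factors are early response genes. Of 22 immediate-early genes, which answer growth factors and the handling of cells, 17 fell and 2 rose in H4K91R, and the counts in H4K91Q were again 17 and 2. Over all tested genes 25.1% fell and 20.9% rose in H4K91R, and 23.8% fell and 22.5% rose in H4K91Q. The median log2 change of the list was -0.87 in H4K91R and -0.82 in H4K91Q, where it was -0.03 and 0.01 over all tested genes. The genes that rose, named after their values were seen, were Ier2 in both mutants, Egr2 in H4K91R and Egr1 in H4K91Q. Atf3, a stress-induced factor, stood at 25.7 ± 4.67 CPM in H4K91R, 25.6 ± 2.11 CPM in H4K91Q and 87.9 ± 4.78 CPM in H4WT. Fosb, an AP-1 subunit, stood at 5.91 ± 1.58, 4.23 ± 0.283 and 27.0 ± 4.44 CPM. Klf6 and Klf4 fell in both mutants like most of this list, while Klf2 rose in both and Klf10 in H4K91Q. The part of this class in their levels was not tested. Nor was that of the smooth muscle and epithelial markers: 7 of 7 tested smooth muscle markers and 6 of 7 tested epithelial markers fell in each mutant. All 8 neuronal markers rose in each.

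Klf2 is induced through the kinase ERK5 and MEF2 factors. In that list Mapk7, which encodes ERK5, rose by 0.48 ± 0.083 in H4K91R and 0.50 ± 0.083 in H4K91Q. Mef2a fell by 0.58 ± 0.11 and by 0.62 ± 0.11 on the log2 scale, and Mef2d by 0.27 ± 0.072 and by 0.29 ± 0.071. Of the 7 genes, 1 rose and 3 fell in H4K91R, and 1 rose and 4 fell in H4K91Q. The share of all tested genes called was 46% in H4K91R and 46.3% in H4K91Q. Endothelial cells are rich in Klf2. Their 8 markers summed to 41.7 to 51.7 CPM in H4K91R, 44.9 to 54.4 CPM in H4K91Q and 44.7 to 52.9 CPM in H4WT, ranges that overlapped. Single markers moved within that sum, of which 5 were tested. Cdh5, an endothelial cadherin, rose by 0.65 in H4K91R and 0.92 in H4K91Q on the log2 scale (adjusted p = 0.00318 and 0.000204, edgeR). Pecam1 and Kdr, picked out after their values were seen, differed in direction. Pecam1 rose by 1.33 in H4K91Q against H4WT and by 2.03 against H4K91R, and had a log2 change of -0.69 in H4K91R against H4WT (adjusted p = 0.173, edgeR). Kdr had log2 changes of -1.40 in H4K91R and -1.45 in H4K91Q (adjusted p = 0.00232 and 0.00136, edgeR). T cells and other blood cells also hold Klf2. Of 8 blood and macrophage markers, Tyrobp, C1qa, Hba-x and Hbb-bh1 had 0 counts in all 9 libraries, and the list summed to 5.27 CPM at most. The part of either cell type in the Klf2 level was not tested.

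The comparison of H4K91Q with H4K91R asked whether the 2 mutants differ. None of the 9 factors passed it, against 5.16% of all tested genes (2.37% higher and 2.78% lower in H4K91Q), and 3 had an unadjusted p below 0.05 (edgeR). DESeq2 and limma-voom likewise called 0 of the 9. The 3 were Klf2, Klf9 and Klf10, for which every H4K91Q library lay above every H4K91R library, and no member lay wholly below. Over all genes 25.4% did not overlap, 12.5% above and 12.8% below. Klf2 came nearest, with a log2 change of 0.29 ± 0.079 and an adjusted p of 0.0513 (edgeR). It passed without a filter on low counts (0.043), with the replicate block (0.0377) and without H4K91Q replicate 3 (0.0219). For Klf9 the log2 change was 0.27 (95% interval 0.06 to 0.48, adjusted p = 0.129, edgeR) and for Klf10 it was 0.22 (0.04 to 0.40, adjusted p = 0.135, edgeR). Klf4 differed by -0.0041 on the log2 scale, with a 95% interval of -0.15 to 0.14.

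The partners of Klf2, Klf4 and Klf5 in the naive network were also compared between the mutants. Of 18 tested partners, 10 were higher in H4K91Q than in H4K91R and 0 lower, where 2.37% of all tested genes were higher and 2.78% lower. Their median log2 change was 1.37, where it was 0.04 for the 9 factors and 0.01 for all tested genes. Of the 10, Dppa3, Tcl1, Nr0b1, Nr5a2 and Fgf4 were near the floor in H4K91R, at 0.0853 to 0.518 CPM. A count of 0 allows 0.173 to 0.295 CPM by library there. Dppa3, Tcl1, Nr0b1 and Nr5a2 had means of 1.31 to 2.86 CPM in H4K91Q and 0.0853 to 0.552 CPM in the other groups. They probably passed the filter on low counts only through H4K91Q, which largely fixed their direction in advance. The count of 10 and the median of 1.37 include them, so neither is free of this selection. Nanog, Pou5f1, Esrrb, Tfcp2l1 and Zfp42 stood at 2.23 to 9.91 CPM in H4K91R. Nanog, a core pluripotency factor, stood at 17.4 ± 4.28 CPM in H4K91Q and 2.23 ± 0.947 CPM in H4K91R, with 3.80 ± 0.811 CPM in H4WT. Esrrb, a nuclear receptor of the same network, stood at 13.5 ± 2.78 CPM in H4K91Q and 4.18 ± 0.917 CPM in H4K91R, with 3.68 ± 0.921 CPM in H4WT. The log2 change between the mutants was 3.04 ± 0.28 for Nanog and 1.70 ± 0.22 for Esrrb (adjusted p = 0.000273 and 0.00161, edgeR). The upper limits of the intervals of Klf2, Klf4 and Klf5 in the same comparison were 0.46, 0.14 and 0.23. Against H4WT, 2 of the 18 partners rose and 7 fell in H4K91R, and 11 rose and 2 fell in H4K91Q. Those 11 include Dppa3, Nr0b1 and Nr5a2, for which the same limit of the filter holds. The shares over all tested genes were 20.9% and 25.1% in H4K91R, and 22.5% and 23.8% in H4K91Q.

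**Figure D4:**
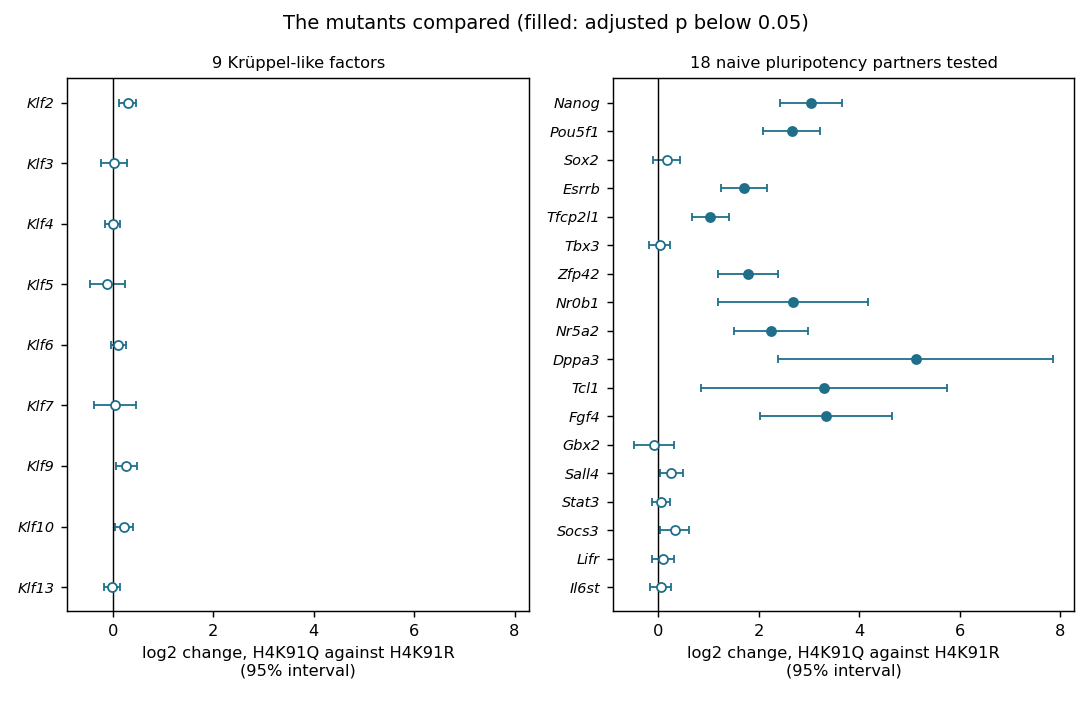
Log2 change of H4K91Q against H4K91R with its 95% interval, for the 9 Krüppel-like factors (left) and the 18 naive pluripotency partners tested (right) on the same axis, filled where the adjusted p is below 0.05. All 9 factors lie between -0.11 and 0.29 and are open, while 10 of the partners are filled and to the right of 0, up to 5.13. That largest change is of Dppa3, which stood near the floor in H4K91R, at 0.0853 CPM. Dppa3, Tcl1, Nr0b1 and Nr5a2 probably passed the filter on low counts only through H4K91Q.

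Among 12922 genes of at least 2 CPM, those whose log2 CPM over the 9 libraries was most like that of a factor were sought for the 3 factors with the smallest joint p over the groups. For Klf9 they were Soat1, Cand1 and Usp7, with a Pearson r of 0.990, 0.989 and 0.988. For Klf2 they were Asf1a, Brd7 and C430049B03Rik at 0.975, 0.971 and 0.968, and for Klf6 they were Me2, Mak16 and Capza1 at 0.991, 0.990 and 0.989. The 9 points share their 3 groups and scaling, so these values are a description. Soat1, which esterifies cholesterol, stood at 112 ± 3.34 CPM in H4K91R, 123 ± 3.28 CPM in H4K91Q and 177 ± 8.56 CPM in H4WT. Asf1a, a chaperone of histones H3 and H4, stood at 42.7 ± 1.04, 47.0 ± 3.65 and 36.4 ± 1.35 CPM in the same groups. Among the factors themselves Klf3, Klf4, Klf6 and Klf9 had pairwise r of 0.85 to 0.93, and Klf2 and Klf10 of 0.92.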

How the data were processed

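Per the labels' protocols, RNA came from QIAGEN RNeasy columns and poly(A) libraries from NEBNext Ultra II reagents. The deposited values are expected counts per Entrez gene ID. The submitters' processing notes name Salmon 0.8.2, DESeq2 and build mm10, with no role. All deposited values were whole, and whether the authors rounded Salmon's estimates is not given in the sources used here, nor are annotation, trimming and strand setting. Salmon divides reads shared by similar genes.

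Symbols came from a RefSeq table for GRCm38.p6, which matched 24045 of 24100 IDs. The other 55 IDs held 0.037% to 0.0584% of a library's counts. Genes passing filterByExpr (minimum count 10) were fitted in edgeR 4.0.16 under R 4.3.3, with TMM factors of 0.911 to 1.06, 1 mean per group over all 9 libraries, a common biological coefficient of variation of 8.82% and two-sided quasi-likelihood tests. Errors of log2 changes are SEs from that fit and intervals are 95%. DESeq2 1.42.0 and limma 3.58.1 (voom) served as alternatives. Exon lengths came from GENCODE M21, matched by symbol. No replicate pair was identical or within counting noise.

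The members and the gene lists were chosen with earlier results of these data known. All 182 listed names matched a symbol. Every member is named, and so were called genes of the lists (mean of 1 CPM or more, lowest adjusted p first, at most 4 per list and comparison; Sp1 and Sp3 where no Sp gene was called). Counts of 0 allow up to 3 counts, or 0.111 to 0.367 CPM by library, which covers counting error only. Deviations of same-numbered libraries from their group means were correlated as a check of pairing. Of 9 such pairs, 5 were above 0.1 (range -0.163 to 0.198). All 3 pairs of H4K91Q with H4WT were (0.172, 0.198 and 0.141), so for that comparison the numbers count as pairing the libraries, and the replicate block changed no member's call in it. Of the pairs with H4K91R, only those of replicate 1 were (0.198 with H4K91Q and 0.174 with H4WT). Pairs of unlike number ranged from -0.286 to 0.265 over all groups, and those of H4K91Q with H4WT reached 0.0359. Unless the block is named, SEs, intervals and p-values come from the fit without it, also for H4K91Q against H4WT.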

Additional observations from a re-analysis of the deposited data

How the results depend on the processing

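In the 16 alternatives tried per comparison, the calls of Klf2, Klf3, Klf6 and Klf9 against H4WT in both mutants, and of Klf10 in H4K91Q, kept their direction and passed in all. Log2 changes ranged over these from -1.17 to -0.95 for Klf9 in H4K91R and -0.91 to -0.69 in H4K91Q, and from 0.26 to 0.50 and 0.57 to 0.78 for Klf2. Klf4 lost both calls with library size scaling only, under which 5031 genes rose and 2013 fell in H4K91R and 5557 and 2069 in H4K91Q, where TMM gave 3092 and 3705, and 3314 and 3516. Leaving out 1 library at a time, 5 members were called in H4K91R against H4WT in every fit and 6 to 7 in H4K91Q against H4WT, the seventh being Klf5. Between the mutants, 0 to 1 were called on leaving out a library, and 1 each with no filter on low counts and with the replicate block, in each case Klf2. Over all genes, calls between the mutants numbered 188 to 1093 on leaving out a library, 188 without H4K91R replicate 2, 202 without H4K91Q replicate 2, 298 without H4K91Q replicate 1 and 410 without H4K91R replicate 1, against 761. Those lower counts rest on fewer libraries. With the replicate block, 6751, 6840 and 1011 genes were called in the 3 comparisons, and it ended no call of a member. Of the 9 libraries, 3 correlated best with their own number in both other groups.

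Changes that were not called and lay near 0 took the other sign in some fits, and none of these passed. For Klf7 this was H4K91R against H4WT with the replicate block (-0.01) and without a library (-0.19 to 0.21), H4K91Q against H4WT without a library (-0.16 to 0.23) and H4K91Q against H4K91R without a library (-0.13 to 0.17). For Klf13 it was H4K91R against H4WT with RLE scaling (0.00), library size only (0.16), DESeq2 (0.01), the compared groups only (0.00) and without a library (-0.07 to 0.05), H4K91Q against H4WT with library size only (0.12) and without a library (-0.10 to 0.01), and H4K91Q against H4K91R without a library (-0.06 to 0.02). Between the mutants it was also Klf3 with RLE scaling and DESeq2 (-0.01 each) and without a library (-0.10 to 0.09), Klf4 with no filter on low counts (0.00) and without a library (-0.05 to 0.04), and Klf5 without a library (-0.24 to 0.04). The low count of Klf7, 62 to 190 per library, limits its precision.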

Other observations

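Sp factors share the zinc fingers and sites of the Krüppel-like factors. Sp6, a factor of tooth and skin epithelium, fell by 1.85 ± 0.21 on the log2 scale in H4K91R and by 1.77 ± 0.19 in H4K91Q, and stood at 7.06 ± 2.62 CPM in H4K91R, 7.66 ± 1.17 CPM in H4K91Q and 26.0 ± 2.50 CPM in H4WT. It was the only Sp gene called in H4K91R, out of 8 tested, where 46% of all tested genes were called. In H4K91Q Sp5, a Wnt target, rose by 0.89 ± 0.28 and Sp4, a neuronal factor, by 0.36 ± 0.13, and Sp9, a factor of forebrain interneurons, fell by 0.88 ± 0.28 on the log2 scale. The abundant and widely expressed Sp1 and Sp3 were not called in any of the 3 comparisons.

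Of 14 genes for cofactors and ubiquitin ligases of Krüppel-like factors, 2 rose and 3 fell in H4K91R, and 3 rose and 1 fell in H4K91Q. Over all tested genes 46% were called in H4K91R and 46.3% in H4K91Q. Wwp1, a ubiquitin ligase that acts on Klf2 and Klf5 proteins, fell by 0.58 ± 0.090 on the log2 scale in H4K91R and by 0.45 ± 0.089 in H4K91Q. Ctbp1, the corepressor that Klf3 recruits, rose by 0.31 ± 0.073 in H4K91R. Sap30, a subunit of the Sin3 complex, rose by 0.52 ± 0.15 in H4K91R and by 0.44 ± 0.15 in H4K91Q.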
